A study of Mus musculus with 3 samples.

Results

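AP-1 is a transcription factor built from pairs of proteins, in which a Fos-family subunit joins a Jun-family subunit or Jun-family subunits pair with each other, and the pair binds a short element in promoters and enhancers. Fos, Fosb, Fosl1 (Fra-1) and Fosl2 (Fra-2) form the Fos family, and Jun, Junb and Jund the Jun family. Some of the subunit genes, such as Fos and Junb, are known as immediate early genes that respond to growth factors, stress and cytokines. In bone, Fos is needed for osteoclasts, while Fosl1, Fosl2 and Junb act in cells of the osteoblast lineage. The 7 genes were taken by name from a table of 15287 genes. The set was chosen by its measured values, with the high FPKM of Fosl1 in the Ti library already known, so differences between Ti and CTL are given as a description. All 7 passed the filter used here, which asked for 1 FPKM or more in 1 library or more, as did 11137 genes in all. Fos reached 1 FPKM only in the libraries with titanium particles, where it was high. FPKM is the number of fragments of a gene divided by transcript length and by the depth of its library.

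The cells were MC3T3-E1, a wild-type mouse preosteoblast line from calvaria, examined by RNA-seq of total RNA in 3 libraries. CTL cells had no treatment, Ti cells were given titanium particles at 10 μg per cm2 for 24 h, and Ti+Se-Met cells received the same dose of particles together with selenomethionine (Se-Met) at 5 μM, also for 24 h. Each condition had 1 library, so differences could not be set against replicates and no p-value is given. Where 3 values follow a gene they stand in the order CTL, Ti, Ti+Se-Met. No library held Se-Met without particles, and 1 line at 1 time point was examined. Steps in the low FPKM values placed the depth at 14350000 fragments for CTL, 14800000 for Ti and 10450000 for the library with Se-Met. An interval given with a fold or a ratio is a 95% exact binomial interval on fragments derived from these depths. It reflects counting error alone, and that of a fold sets 1 library against another. Shares are given without an interval. Of 8 preosteoblast markers, Col1a1, Col1a2, Runx2, Twist1 and Alpl passed the filter, and Sp7, Msx2 and Pth1r stayed below 1 FPKM in each library. The summed FPKM of the 8 markers was 4104 in CTL, 1407 with particles and 1804 with particles and Se-Met. Col1a1 and Col1a2 made up most of this sum in each library. Runx2 was at 26.77, 17.14 and 22.97 FPKM, and Twist1 at 52.14, 35.83 and 41.56. Among 7 macrophage and osteoclast markers, Ptprc and Adgre1 were not listed and Csf1r did not exceed 0.1 FPKM, but Lyz2 (26.72, 14.76 and 12.42 FPKM) and Ctsk (17.78, 29.68 and 26.22 FPKM) were measured. The summed FPKM of these 7 was 44.58, 44.94 and 39.16. Fewer cells of a type and less RNA per cell cannot be told apart in such libraries.

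The sequence before the start of 3 of the genes is shown, because Fos and Junb were among the genes past 2-fold and Jun carries the jun1 and jun2 sites, at which AP-1 is known to act on its own gene. Entries in the table of RefSeq promoters used here were matched for 6 of the 7 genes, all but Fosl1. Each window holds the 250 bases before the annotated start, 5′ to 3′ on the strand of the gene, with coordinates of GRCm38.p6. Fos lies on the plus strand at chr12:85473640-85473889, Junb on the minus strand at chr8:84978749-84978998 and Jun on the minus strand at chr4:95052223-95052472. Capitals mark the cAMP response element (CRE) core TGACG and the TATA box TATAAA in Fos, the core in Junb, and in Jun, in order, the jun2 site TTACCTCA, the jun1 site TGACATCA and a MEF2 site.
Fos: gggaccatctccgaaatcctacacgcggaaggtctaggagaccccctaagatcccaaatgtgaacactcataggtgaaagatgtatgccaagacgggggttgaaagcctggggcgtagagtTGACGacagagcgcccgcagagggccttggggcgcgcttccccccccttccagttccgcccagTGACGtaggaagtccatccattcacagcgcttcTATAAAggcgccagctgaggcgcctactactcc
Junb: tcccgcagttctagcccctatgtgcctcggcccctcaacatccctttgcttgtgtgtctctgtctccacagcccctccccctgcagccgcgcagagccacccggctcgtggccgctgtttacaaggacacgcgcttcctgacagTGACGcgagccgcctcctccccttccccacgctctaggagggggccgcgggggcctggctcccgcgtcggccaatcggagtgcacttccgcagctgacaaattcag
Jun: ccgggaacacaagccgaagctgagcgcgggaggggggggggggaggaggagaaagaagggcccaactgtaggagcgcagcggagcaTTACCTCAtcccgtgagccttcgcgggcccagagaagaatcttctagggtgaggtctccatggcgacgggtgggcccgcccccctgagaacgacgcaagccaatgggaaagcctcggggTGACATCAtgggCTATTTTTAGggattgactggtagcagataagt

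The Fos window held 2 CRE cores, which began 129 and 66 bases before the start, and a TATA box 33 bases before it. The Junb window held 1 core, 106 bases before the start. In the Jun window the jun2 site lay 164 bases, the jun1 site 45 bases and the MEF2 site 33 bases before the start. Fosb held 1 core 60 bases before its start, and the windows of Fosl2 and Jund held 0 of the motifs. The TRE, the element TGACTCA that AP-1 binds, and the full CRE, TGACGTCA, which contains the core, were found in 0 of the 6 windows. Both strands were searched. Over all 32851 mouse windows of this length in the RefSeq table, 17.8% held the core, 12.4% the TATA box, 4.46% the TRE, 2.93% the jun1 site, 1.55% the CRE, 0.728% the jun2 site and 0.104% the MEF2 site. These shares were not matched for the content of G and C bases, whose median was 52.4% over all windows. It was 58.4% for Fos, 68.8% for Fosb, 64.4% for Fosl2, 61.2% for Jun, 66.4% for Junb and 47.6% for Jund. The motifs are matches of letters, and nothing was measured here on binding.

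Fosl1 and Junb differed most in level between the untreated cells and the cells with particles. Fosl1, which lacks the transactivation domain of Fos and takes part in bone matrix formation, stood at 10.18 FPKM in CTL, 88.45 with particles and 84.3 with particles and Se-Met. Junb, a Jun-family subunit with roles in osteoblast growth, stood at 9.12, 50.44 and 49.13 FPKM. Both libraries with particles were far above CTL for both genes and lay near each other. In CTL, Fosl1 exceeded 40.3% of the 11137 genes in FPKM, and in Ti 91.6%. For Junb these shares were 36.8% and 84.5%.

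Fos, the founding member, with a short-lived transcript, was the lowest of the family in CTL at 0.43 FPKM, which rested on about 12 fragments. It stood at 3.58 FPKM with particles and 3.07 with Se-Met added, about 104 and 63 fragments. Jun, the main partner of the Fos proteins, was measured at 32.94, 62.2 and 62.46 FPKM. The level of Jun in both libraries with particles was thus above that in CTL by nearly the same amount. Fosb, a Fos-like activator with a truncated splice form in neurons, was low throughout, at 2.2, 3.49 and 3.09 FPKM.

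Fosl2 and Jund were the members closest to their CTL level. Fosl2, which acts in osteoblast differentiation, was at 42.21 FPKM in CTL, 42.07 with particles and 48.79 with Se-Met added. Jund, the Jun-family member expressed most steadily in resting cells, was at 21.37, 27.32 and 21.32 FPKM. Fosl2 was highest in the library with Se-Met, whereas Jund was highest in the library with particles alone.

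As FPKM is per length, the members can be ranked within a library. The order in CTL was Fosl2, Jun, Jund, Fosl1, Junb, Fosb and Fos. Fosl1 and Junb could not be ordered there, with a ratio of 1.12 (0.926 to 1.34). The order in Ti was Fosl1, Jun, Junb, Fosl2, Jund, Fos and Fosb, with Fos and Fosb at a ratio of 1.03 (0.80 to 1.31). In Ti+Se-Met it was Fosl1, Jun, Junb, Fosl2, Jund, Fosb and Fos, where Junb over Fosl2 gave 1.01 (0.933 to 1.09) and Fosb over Fos 1.01 (0.731 to 1.38). The intervals of the other neighbours did not include equal levels. Fosl2 was thus the highest subunit gene in CTL and ranked after Fosl1, Jun and Junb in Ti, while in Ti+Se-Met it ranked after Fosl1 and Jun and could not be ordered against Junb.

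The make-up of each family does not depend on scaling between libraries. Fosl2 gave 76.7% of the summed Fos-family FPKM in CTL, 30.6% with particles and 35.0% with Se-Met added. Fosl1 gave 18.5%, 64.3% and 60.5%. Per length, Fosl2 was thus the largest share of the family in CTL, and Fosl1 in both libraries with particles. Fosl2 has the longer transcript, and on estimated fragments, without division by length, it was the largest in all 3 libraries, with 91.1%, 61.1% and 65.8% against 5.90%, 34.5% and 30.5% for Fosl1. In the Jun family, Jun remained the largest share, with 51.9%, 44.4% and 47.0%. Junb gave 14.4%, 36.0% and 37.0%, and Jund 33.7%, 19.5% and 16.04%. Junb was below Jund in CTL and above it in both libraries with particles.

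**Figure D1:**
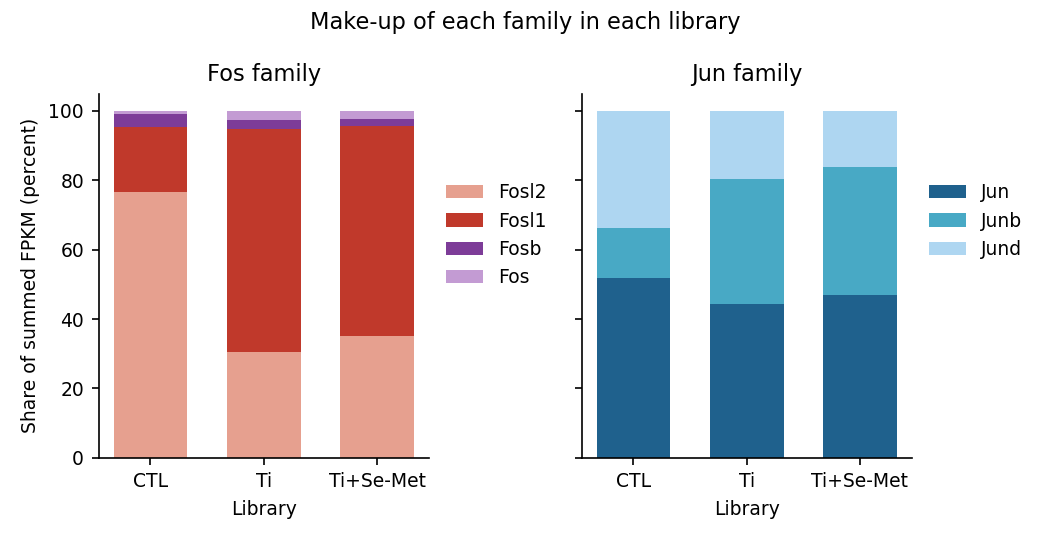
Share of the summed FPKM of the Fos family (left) and of the Jun family (right) held by each gene, in percent, for the 3 libraries. Fosl1 took 18.5%, 64.3% and 60.5% of the Fos family, in the order of the bars, and Junb took 14.4%, 36.0% and 37.0% of the Jun family.

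The Fos family summed to 55.02, 137.6 and 139.2 FPKM, and the Jun family to 63.43, 140 and 132.9, so that the Fos family held 46.5%, 49.6% and 51.2% of the whole. The sum of the 7 genes was 118.4, 277.6 and 272.2 FPKM, so that Ti was 2.34-fold and Ti+Se-Met 2.30-fold above CTL. Of the 159.1 FPKM by which Ti exceeded CTL, Fosl1 made up 49.2%, Junb 26.0% and Jun 18.4%, together 93.6%. Fosl1 and Junb held 16.3% of the sum in CTL and 50.04% in Ti.

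For Ti against CTL, the comparison that asks how the cells respond to particles, the FPKM of Fosl1 was 8.69-fold higher in Ti (7.63 to 9.96), that of Fos 8.33-fold (4.61 to 16.8) and that of Junb 5.53-fold (4.79 to 6.42). Jun was 1.89-fold higher (1.77 to 2.01), Fosb 1.59-fold (1.25 to 2.02) and Jund 1.28-fold (1.13 to 1.44). For Fosl2 the fold was 0.997 (0.953 to 1.04). No member was lower by 2-fold. Differences between libraries were also taken as log2(FPKM + 1), where the added 1 makes those of low genes smaller, and a gene was counted when this difference was 1 or more in size, that is 2-fold. On that scale Fosl1 differed by 3.0, Junb by 2.35 and Fos by 1.68, so 3 of the 7 members were counted as higher and 0 as lower. Over all 11137 genes, 3.63% were counted as higher and 3.64% as lower, 7.26% together. Since the members were chosen with this contrast known, nothing is read from that count. Jun, at 0.90, lay just below the threshold and was not counted. The median difference was 0.90 over the members and 0.08 over all genes.

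The members' folds against CTL moved with the scaling, as the deposited values of a library added up to 448285, 526017 and 514568 FPKM. With equal sums (TPM) the median difference of all genes was -0.14, and 233 genes were counted as higher and 864 as lower, in place of 404 and 405. TPM values were larger than the deposited FPKM while the added 1 was kept, so these counts reflect both. Upper-quartile scaling gave 266 and 492, and median-of-ratios scaling 339 and 432. Fosl1, Junb and Fos were counted under each. Under TPM, Jund was 1.09-fold of CTL (0.964 to 1.23), an interval that includes equal levels, and Fosl2 was 0.849-fold (0.812 to 0.888). Upper-quartile scaling gave 0.928-fold for Fosl2 (0.888 to 0.970). Set against the median of all genes, the difference of Fosl1 was 2.92 as deposited and 2.97 under TPM, that of Junb 2.27 and 2.32, and that of Jund 0.26 under both.

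**Figure D2:**
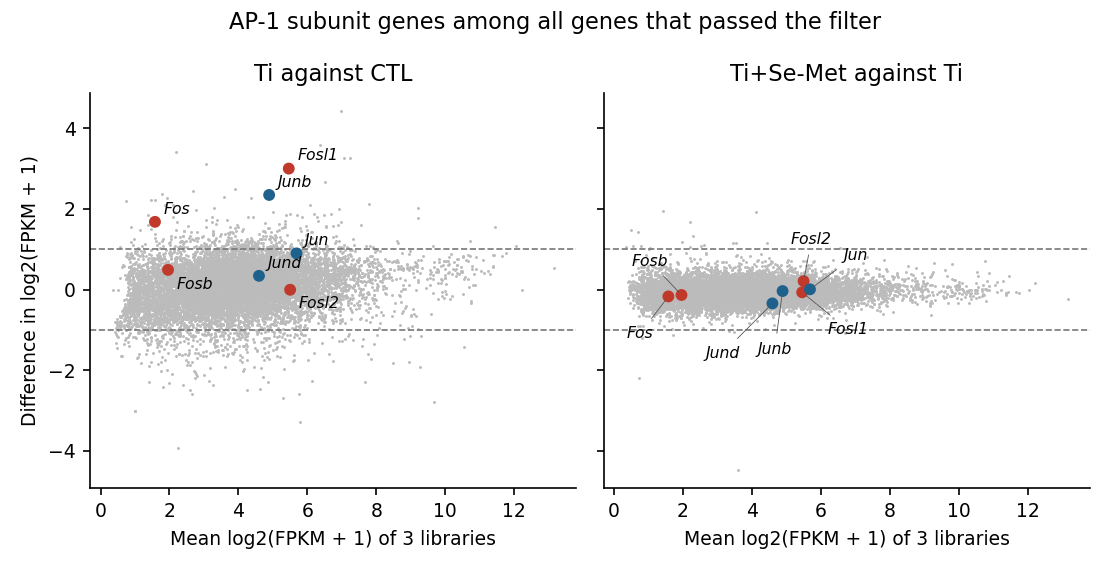
Difference in log2(FPKM + 1) against the mean log2(FPKM + 1) of the 3 libraries for the 11137 genes that passed the filter (grey), for Ti against CTL (left) and Ti+Se-Met against Ti (right), with Fos-family genes in red and Jun-family genes in blue. Dashed lines mark 2-fold. Fosl1, Junb and Fos lay above the line on the left, and all 7 members lay between the lines on the right.

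Ti+Se-Met against CTL shares the CTL library with the comparison above, so the values are given side by side and are not a second measurement. Fosl1 was 8.28-fold higher in Ti+Se-Met than in CTL (7.25 to 9.52), Fos 7.14-fold (3.85 to 14.7) and Junb 5.39-fold (4.64 to 6.29). Jun was 1.90-fold higher (1.77 to 2.03) and Fosb 1.41-fold (1.07 to 1.82). Fosl2 was 1.16-fold of CTL (1.10 to 1.21), and Jund 0.998-fold (0.863 to 1.15). Under TPM the fold of Fosb was 1.22 (0.933 to 1.59) and that of Fosl2 1.01 (0.961 to 1.06), and both intervals include equal levels. Jund was above CTL with median-of-ratios scaling, at 1.01-fold (0.877 to 1.17), and below it otherwise, in each case with an interval that includes or touches equal levels. Again 3 of 7 members, Fosl1, Junb and Fos, were counted as higher, beside 2.64% of all genes, and 0 as lower, beside 3.32% (5.96% together).

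Ti+Se-Met against Ti asks what Se-Met added to the particles changed. The Fosl1 level of Ti+Se-Met was 0.953 of that in Ti (0.892 to 1.02), Junb 0.974 (0.892 to 1.06) and Jun 1.00 (0.948 to 1.06). The 2 low members had the widest intervals, Fos with 0.858 (0.617 to 1.18) and Fosb with 0.885 (0.694 to 1.12). These 5 intervals include equal levels, which does not show that the levels were alike, but each lies within 2-fold in either direction. Fosl2 was 1.16-fold higher with Se-Met (1.11 to 1.22), and Jund was 0.780 of its Ti level (0.681 to 0.892). The intervals of Fosl2 and Jund excluded equal levels as deposited and under each of the 3 other scalings. Many other genes differed by more, as Fosl2 ranked 1283 from the highest and Jund 1134 from the lowest of 11137 genes. None of the 7 members was counted at 2-fold, beside 0.162% of all genes counted as higher and 0.0629% as lower, 0.224% together. The median difference was -0.07 over the members and -0.06 over all genes.

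**Figure D3:**
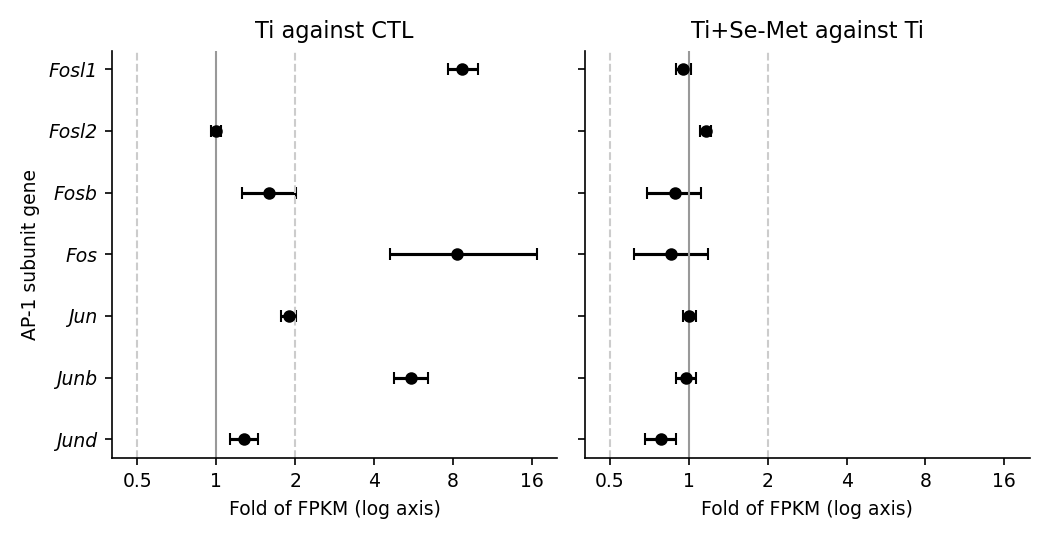
Fold of FPKM (log axis) of each AP-1 subunit gene for Ti against CTL (left) and Ti+Se-Met against Ti (right), with 95% counting intervals. The solid line marks equal levels and the dashed lines 2-fold in each direction. Fosl1, Fos and Junb lay beyond 2-fold on the left, and on the right only the intervals of Fosl2 and Jund lay clear of the solid line.

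The genes that act with AP-1 were described in the same way, by lists made with earlier results of these libraries known. Nothing is therefore read from the counts of these lists. Each count stands beside 3.63% of all genes higher and 3.64% lower in Ti against CTL, with a median of 0.08. In Ti+Se-Met against Ti the shares of all genes were 0.162% higher and 0.0629% lower. Of 16 other basic leucine zipper (bZIP) genes that passed the filter, 3 were higher in Ti than in CTL by 2-fold and 0 lower. Some of the 16 code for proteins that pair with Fos or Jun. The median difference was 0.19. Maff, a small Maf protein, was at 1.83, 10.05 and 9.13 FPKM, a fold of 5.49 for Ti against CTL (4.06 to 7.74). Atf4, the regulator of the amino acid response, was at 91.03, 219.8 and 207 FPKM, and Ddit3 (CHOP), which lies downstream of it, at 67.89, 156.8 and 131.9. Between Ti+Se-Met and Ti, 0 of the 16 genes were counted. The bZIP list thus had its highest Ti value in Atf4, and Maff had the greatest fold.

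Upstream, the transcripts of MAP kinases and of other kinases above AP-1, which act by phosphorylation, differed by less than 2-fold. Of 15 that passed, 0 were counted in Ti against CTL, where the differences ran from -0.37 to 0.65 with a median of -0.05, and 0 in Ti+Se-Met against Ti. Kinase activity was not measured. Of 9 genes for the turnover of Fos and Jun proteins, 1 was counted in Ti against CTL, with a median of -0.18. This was Trib1, a scaffold of the COP1 ubiquitin ligase, at 3.2, 9.13 and 7.34 FPKM. With a pseudocount of 5, 0 of the 9 were counted, and with 0.1, 2. Of 15 transcription factors and coactivators listed as acting on Fos-family promoters, 3 were higher in Ti, with a median of 0.23. These were Ets1 at 2.76, 7.97 and 6.57 FPKM, Myc at 14.01, 33.72 and 25.22 and Tead4, a partner of YAP, at 3.67, 8.5 and 11.07. Under TPM, median-of-ratios or upper-quartile scaling 2 of the 3 were counted, and 1 with a pseudocount of 5.

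Other immediate early genes stood on both sides. Of 22 that passed, 6 were higher in Ti than in CTL and 1 was lower, with a median difference of 0.58, and 0 were counted in Ti+Se-Met against Ti. Nr4a1, an orphan nuclear receptor, was at 3.11, 13.2 and 12.88 FPKM. Klf10, a TGF-β-inducible factor, was at 4.88, 18.34 and 16.67 FPKM. Egr1, a zinc finger factor often induced together with Fos, was at 6.44, 20.7 and 23.16, and Ier2 at 6.28, 17.07 and 15.85. For these 4 genes the library with particles alone and that with Se-Met were both above CTL, as for Fos and Junb. Dusp1 and Nr4a2, named after their values were seen, were also counted as higher. Dusp1 was at 9.51, 21.81 and 20.08 FPKM and Nr4a2 at 1.47, 4.2 and 2.35. Between the libraries with particles, the fold of Nr4a2 was 0.56 (0.43 to 0.73). Ccn1, a secreted matrix protein, was the gene counted as lower, at 237.8, 98.84 and 173.3 FPKM. With a pseudocount of 5, 3 genes were counted as higher and 1 as lower.

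Genes described as responsive to AP-1 were not uniform either. Of 27 that passed, 8 were higher in Ti than in CTL and 2 were lower, beside 3.63% and 3.64% of all genes. The median difference was 0.62, and 0.08 over all genes. Hmga1, a chromatin protein, was at 33.11, 324.2 and 301.9 FPKM, and its relative Hmga2 at 27.05, 175.9 and 155.4. Timp1, an inhibitor of matrix metalloproteinases, was at 49.72, 202.5 and 173.1 FPKM, whereas the protease gene Mmp9 was lower with particles, at 9.48, 1.46 and 1.95. The second gene counted as lower was Dcn (decorin), named after its values were seen, at 822.7, 231.6 and 245.6 FPKM. In Ti+Se-Met against Ti, 1 gene was higher and 1 lower, beside 0.162% and 0.0629% of all genes. Ptgs2 (COX-2), the inducible enzyme of prostaglandin synthesis, was at 6.1, 13 and 51.82 FPKM, a fold of 3.99 between the libraries with particles (3.68 to 4.32). Hmox1, a heme-degrading enzyme of the oxidative stress response, was at 54.84, 203.9 and 96.48, a fold of 0.473 (0.446 to 0.503). Whether AP-1 has a part in the differences of these 2 genes was not tested, and AP-1 protein and binding were not measured.

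The state of the cells differed beside the subunits. Of 8 osteoblast matrix genes that passed, 2 were higher in Ti than in CTL and 3 were lower, with a median of -0.71. Spp1 (osteopontin) was at 1261, 3706 and 4659 FPKM and Dmp1 at 0.45, 3.64 and 13.85, against 1333, 354.2 and 481.6 for Col1a1, 2688, 998.9 and 1257 for Col1a2 and 1.51, 0.2 and 0.2 for Alpl. Alpl passed the filter only through CTL, and Dmp1 only through the libraries with particles. With a pseudocount of 5, 1 matrix gene was counted as higher and 2 as lower. Dmp1 was also the 1 gene counted in Ti+Se-Met against Ti. Of 10 proliferation genes, 2 were higher in Ti, the replication helicase subunits Mcm2 (13.68, 38.36 and 33.9 FPKM) and Mcm5 (5.67, 16.76 and 17.96), with a median of 0.74. The part of these differences in the levels of the AP-1 subunits was not tested.

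**Figure D4:**
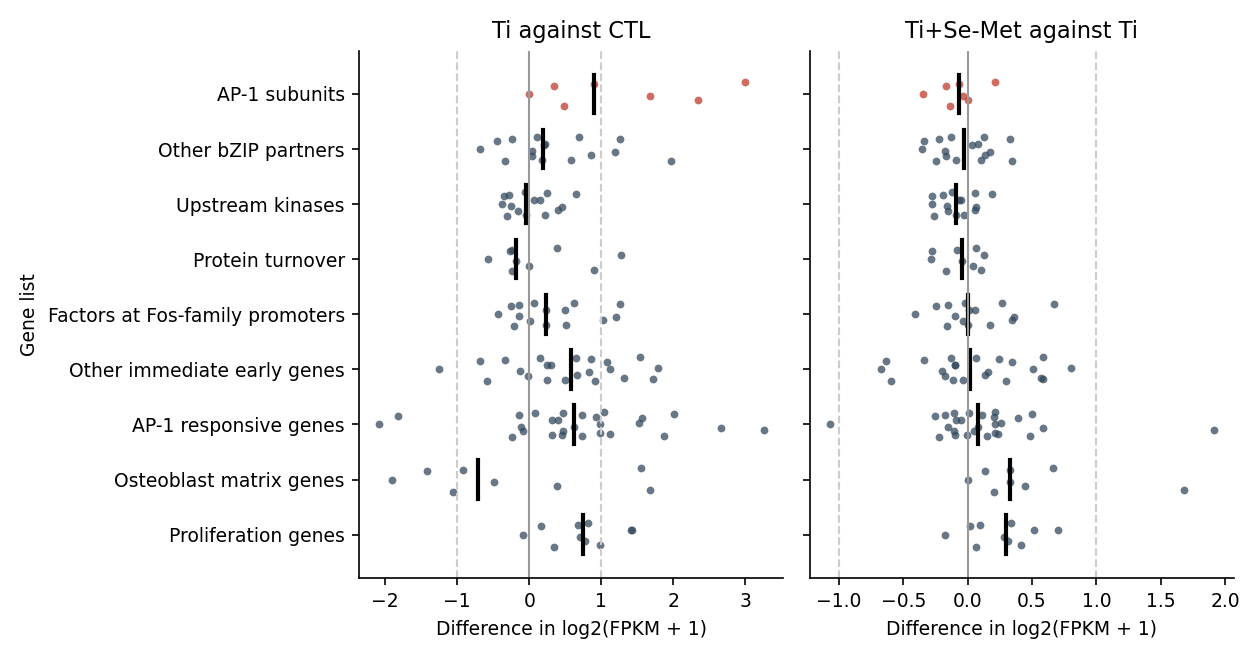
Difference in log2(FPKM + 1) of each gene that passed the filter in the AP-1 subunit set (red) and in 8 further lists (grey), for Ti against CTL (left) and Ti+Se-Met against Ti (right, on a narrower axis). Black bars mark the median of a list and dashed lines 2-fold. The members' median was 0.90 on the left and -0.07 on the right, and that of the kinases was -0.05 on the left.

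The genes whose pattern was most like that of Fosl1 were sought by the distance between pairs of log2 differences, Ti against CTL and Ti+Se-Met against CTL, among 8729 genes that averaged 5 FPKM or more. Fosl1 had differences of 3.0 and 2.93. The nearest was Prl2c3 at a distance of 0.216, with 0.97, 16.03 and 16.08 FPKM, but it belongs to a group of near-identical prolactin-related copies and its value is uncertain. Sgk1, a kinase induced by glucocorticoids and serum, came next at 0.321 with 16.64, 117 and 117 FPKM. Hmga1 followed at 0.334, and Tnfrsf12a, the receptor of the cytokine TWEAK, at 0.463 with 28.15, 278 and 289.2 FPKM. The fifth was the predicted gene Gm10058 at 0.478, listed at 0 in CTL and at 9.7 and 7.95 FPKM in the others. The likeness rests on 3 libraries.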

How the data were processed

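RNA from MC3T3-E1 cells was sequenced in 3 libraries (CTL, Ti, Ti+Se-Met). The authors removed reads with adapters or of low quality, aligned the rest to the mouse genome with HISAT2 and used HTSeq to count genes. The deposited values are FPKM rounded to 2 decimals. The submitters' processing notes name HISAT2, SAMtools, StringTie and the build mm9. How FPKM was computed, whether strand was used and any scaling between libraries are not given in the sources used here. Reads of overlapping or antisense genes may therefore be shared.

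Members and gene lists were chosen with earlier results of these data known. The log2(FPKM + 1) values of the libraries were subtracted in Python 3.11.15 with numpy 2.4.6, pandas 2.3.3 and scipy 1.17.1, for genes that reached 1 FPKM in 1 library or more. No count model was used. Depth was estimated from the FPKM worth of 1 fragment in 453 single-transcript genes of 350 to 1000 bases, after subtraction of 150 bases, with GENCODE M21 lengths on GRCm38. Of the low values, 61.3%, 52.1% and 48.4% (CTL, Ti, Ti+Se-Met) lay within 0.09 fragments of a step. At a depth fixed beforehand, 18% would do so by chance. Depth and subtraction were chosen for the largest share, so these shares are not a test of the depth. With 100 to 200 bases subtracted, ranges of depth were 12800000 to 15300000, 13800000 to 15900000 and 9750000 to 11200000 fragments. The values then added up to 108%, 110% and 110% of the fragments, so fragment numbers are approximate. The steps were tested on simulated data. Promoter windows came from RefSeq on GRCm38.p6, and no coordinate was carried between builds.

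Genes named are the members, up to 5 genes of each list and comparison past 2-fold, the 5 genes nearest to Fosl1, and those said to be chosen after their values were seen. Alternatives were pseudocounts of 0.1 and 5 or none, no filter, a filter on a mean of 5 FPKM, counting at 1.5-fold or at 4-fold, and 3 scalings.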

Additional observations from a re-analysis of the deposited data

How the results depend on the processing

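No paired analysis was possible because CTL, Ti and Ti+Se-Met were single libraries. The 3 members counted in each comparison with CTL, Fosl1, Junb and Fos, became 2 with a pseudocount of 5, with a threshold of 4-fold or among the 5 members with a mean FPKM of at least 5, and 4 at 1.5-fold, where Jun joined them. Between Ti+Se-Met and Ti, 0 members were counted under any of these. Of 126 differences of single members under alternatives, 110 moved by less than their counting error, 16 moved by more, and 0 of those past 2-fold changed sign. The difference of Fos, with about 12 fragments in CTL, ran from 0.66 with a pseudocount of 5 to 3.06 without a pseudocount in Ti against CTL. The family shares depended on scaling to length: on estimated fragments, Fosl1 made up 5.90%, 34.5% and 30.5% of the Fos family in CTL, Ti and Ti+Se-Met, and Jun 67.8%, 60.2% and 62.5% of the Jun family. Without Fosl2, Fosl1 made up 79.5%, 92.6% and 93.2% of the Fos family, and without Jund, Jun made up 78.3%, 55.2% and 56.0%. The lone library of each condition limits every difference, and depth limits Fos and Fosb most. The alternative without a pseudocount and those for the lists were chosen after seeing the data.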

Other observations

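Junb also had close neighbours, which were named after their values were seen. Among the same 8729 genes, the nearest was Cdt1, a factor that licenses DNA replication, at a distance of 0.0589 and with 3.16, 19.48 and 19.09 FPKM, in the order CTL, Ti, Ti+Se-Met. Prkg2, a cGMP-dependent kinase, lay at 0.278 with 1.28, 11.44 and 8.44 FPKM, and Hmga2 at 0.355.

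The functional annotation deposited with the FPKM values places all 7 AP-1 subunit genes in the KEGG pathway for osteoclast differentiation, of which 82 genes passed the filter. Of these, 7 were higher and 2 lower by 2-fold in Ti than in CTL, with a median difference of 0.04, beside 3.63% and 3.64% of all genes, and the 7 include Fosl1, Fos and Junb themselves. Of the 82 genes 0 were counted in Ti+Se-Met against Ti. The IL-17 pathway lists 5 of the subunits and held 54 genes, of which 3, Fos and Fosl1 among them, were higher and 2 lower in Ti. In Ti+Se-Met against Ti, 2 of the 54 were higher and 0 lower, beside 0.162% and 0.0629% of all genes.

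The TRE was counted in the promoter windows of the genes by their difference in Ti against CTL. A gene was counted when any of its windows held the element, so the shares are of genes with a window. The TRE was present for 15 of 319 genes at least 2-fold higher (4.70%) and 20 of 294 at least 2-fold lower (6.80%). Of all genes that passed the filter it was present for 350 of 8955 (3.91%). The CRE was present for 13 of the 319 genes (4.08%), 5 of the 294 (1.70%) and 282 of the 8955 (3.15%). Promoter windows leave out enhancers, where AP-1 mostly binds, so these shares describe letters near starts and were not tested.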
